A study of Mus musculus with 15 samples.

Results

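A set of 9 genes of leukocyte adhesion was followed in mouse ear skin: the selectins Sele and Selp, the selectin ligand Selplg, the immunoglobulin superfamily members Icam1 and Vcam1, and the integrin chains Itgam, Itgal, Itgb2 and Itga4. They were chosen by gene symbol, with earlier results of these data known. All 9 were found among the 48795 genes of the count tables. All 9 were also among the 14991 genes with enough reads to test, with at least 18 reads of each in every library. The 15 libraries were made from polyadenylated ear RNA, and every mouse was female and aged 5 weeks. PMA_1002 ears (n = 6) received the irritant phorbol ester PMA and a synthetic innate defense regulator peptide, PMA_ethanol ears (n = 4) carried the label of PMA with ethanol, and Control ears (n = 5) carried neither name. The study asked how the peptide acts against inflammation that no microbe starts. The sources used here give no dose, time or mouse strain, and no vehicle for PMA_1002 or Control ears, so effects of the peptide and of the vehicle cannot be told apart. Whether each library is a different animal is not stated either. The p-values therefore cover only the variation among these samples, part of which may be technical.

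White blood cells leave the blood by a sequence of contacts with the vessel wall. The selectins E-selectin (Sele) and P-selectin (Selp) on activated endothelium slow passing leukocytes by binding sugar-bearing ligands such as PSGL-1 (Selplg). The cells then stop when their integrins bind ICAM-1 and VCAM-1 on the endothelium, LFA-1 (Itgal with Itgb2) and Mac-1 (Itgam with Itgb2) binding ICAM-1 and VLA-4 (Itga4 with Itgb1) binding VCAM-1.

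Of the 9 genes, 8 were lower in PMA_1002 ears than in PMA_ethanol ears, and Sele did not pass the test. In both PMA groups all 9 genes were higher than in Control ears. The 2 selectins, which are neighbours in the genome, thus differed in the comparison of the PMA groups. Levels are given as CPM, counts-per-million values of a TMM-scaled library, and folds as log2 fold changes from edgeR's quasi-likelihood test with their standard error (SE). A gene was called where the Benjamini-Hochberg adjusted p over all 14991 genes was under 0.05. The 3 comparisons share libraries and are not independent of each other.

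Sele (ENSMUSG00000026582, chr1:164048234-164057677, GRCm38, plus strand) and Selp (ENSMUSG00000026580, chr1:164115264-164150026, plus strand) lie 57586 bp apart on chromosome 1. The 250 bases upstream of each annotated start are shown because these neighbouring genes differed between the PMA groups; they are RefSeq sequences of GRCm38.p6, plus strand, at chr1:164047984-164048233 for Sele and chr1:164115014-164115263 for Selp. Capitals mark matches to the NF-kB consensus, to AP-1 (TGANTCA) and to a TATA box (TATAAA), the first pair searched on both strands and the TATA box on the gene's strand.
Sele: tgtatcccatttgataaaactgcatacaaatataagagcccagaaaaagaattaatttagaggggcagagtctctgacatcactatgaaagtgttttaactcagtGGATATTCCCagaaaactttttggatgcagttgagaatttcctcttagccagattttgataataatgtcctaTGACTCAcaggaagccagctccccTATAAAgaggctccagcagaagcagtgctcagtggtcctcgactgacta
Selp: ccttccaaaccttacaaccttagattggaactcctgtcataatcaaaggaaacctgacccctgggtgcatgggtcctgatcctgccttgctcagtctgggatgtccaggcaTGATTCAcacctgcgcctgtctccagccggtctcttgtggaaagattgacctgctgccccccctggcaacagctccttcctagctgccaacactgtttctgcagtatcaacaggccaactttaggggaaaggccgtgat
The Sele window held an NF-kB match from -145 to -136, an AP-1 match from -73 to -67 and a TATA match from -49 to -44, counted from the start. The Selp window held an AP-1 match from -139 to -133 and none of the other 2 letter patterns. Among 32851 RefSeq windows of the same length, 23.2% held the NF-kB consensus, 6.75% held AP-1 and 7.59% held the TATA letters. These are matches of letters and not tested sites, and their part in the difference between the 2 genes was not tested. Sequences were matched for 5 of the 9 genes. The Icam1 window also held an NF-kB match, from -120 to -111, and Icam1 was called lower in PMA_1002 than in PMA_ethanol ears. Itgam and Itga4 held no NF-kB match.

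Sele, E-selectin, had 35.6 CPM in the lowest, 43.9 CPM at the median and 66.6 CPM in the highest PMA_1002 library. It had 53.0, 23.2, 33.2 and 80.1 CPM in PMA_ethanol libraries 1 to 4. In Control libraries 1 to 5 it had 3.12, 4.31, 5.54, 4.93 and 4.92 CPM. Both PMA groups lay wholly above Control, and the PMA groups overlapped, with PMA_ethanol libraries 2 and 3 below every PMA_1002 library and library 4 above them all. The log2 fold change of PMA_1002 against PMA_ethanol was -0.03 with a 95% interval of -0.63 to 0.56, a fold between 0.648 and 1.48 (edgeR adjusted p = 0.949). That interval leaves room for a change of up to about the size seen for Icam1, given further on, so the absence of a call does not show that the groups were alike. Against Control, Sele was higher by 3.32 (SE 0.318) in PMA_1002 ears (edgeR adjusted p = 7.65e-07) and by 3.35 (SE 0.334) in PMA_ethanol ears (edgeR adjusted p = 4.58e-07). Its spread was widest in PMA_ethanol ears, with a coefficient of variation of 24.7% in PMA_1002 ears and 53.0% in PMA_ethanol ears.

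Selp, P-selectin, had a lowest, median and highest value of 39.3, 57.4 and 85.2 CPM in PMA_1002 libraries. The 4 PMA_ethanol libraries had 176, 87.1, 102 and 199 CPM, and the 5 Control libraries had 5.55, 5.34, 7.3, 5.24 and 4.59 CPM. All 3 groups were apart, although the highest PMA_1002 library came close to the lowest PMA_ethanol library. Selp was lower by 1.26 (log2 fold change -1.26, SE 0.233) in PMA_1002 than in PMA_ethanol ears (edgeR adjusted p = 0.000775). Against Control it was higher by 3.36 (SE 0.279) in PMA_1002 ears (edgeR adjusted p = 1.98e-07) and by 4.62 (SE 0.295) in PMA_ethanol ears (edgeR adjusted p = 4.21e-09), a fold of 24.6 that no other member reached. Selp is also made in megakaryocytes and carried by platelets. Of 8 platelet markers 3 were testable, and their summed level was 56.1 to 84.2 CPM in PMA_1002, 47.3 to 70.4 CPM in PMA_ethanol and 39 to 59.4 CPM in Control libraries. None of the 3 was called between the PMA groups. Against Control, Pf4 was higher by 0.55 (SE 0.134) in PMA_1002 ears (edgeR adjusted p = 0.00236). In PMA_ethanol ears Pf4 was higher by 0.61 (SE 0.147; edgeR adjusted p = 0.0014). Gp1bb and Itga2b were not called against Control. The part of platelets in the Selp levels was not tested.

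The ratio of the 2 selectins within a library, which cancels library scaling, set PMA_ethanol apart. On the log2 scale the difference Selp minus Sele averaged 0.33 ± 0.29 in PMA_1002 (SD, n = 6), 1.64 ± 0.25 in PMA_ethanol (SD, n = 4) and 0.29 ± 0.34 in Control libraries (SD, n = 5). All 4 PMA_ethanol libraries, at 1.31 to 1.9, lay above every PMA_1002 library, at -0.04 to 0.72, and every Control library, at -0.1 to 0.79. The difference between PMA_1002 and PMA_ethanol was -1.31 (two-sided exact permutation p = 0.00476, the smallest that 6 against 4 allows; 0.0223 adjusted over the 45 ratio tests). That between PMA_ethanol and Control was 1.35 (exact permutation p = 0.00794, the smallest that 4 against 5 allows, adjusted 0.0223). This call was lost each time 1 of the 5 Control libraries was left out, with an adjusted p of up to 0.0584. In those runs the exact permutation p of 4 against 4 cannot go below 0.0286, and no ratio of PMA_ethanol against Control passed. The loss therefore says nothing about this ratio in particular. PMA_1002 and Control differed by 0.04 (exact permutation test, adjusted p = 0.87). Within groups, Sele and Selp had the highest correlation among all pairs of the 9 genes, r = 0.78 over the deviations of the 15 libraries from their group means, values that share the library and its depth.

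**Figure D1:**
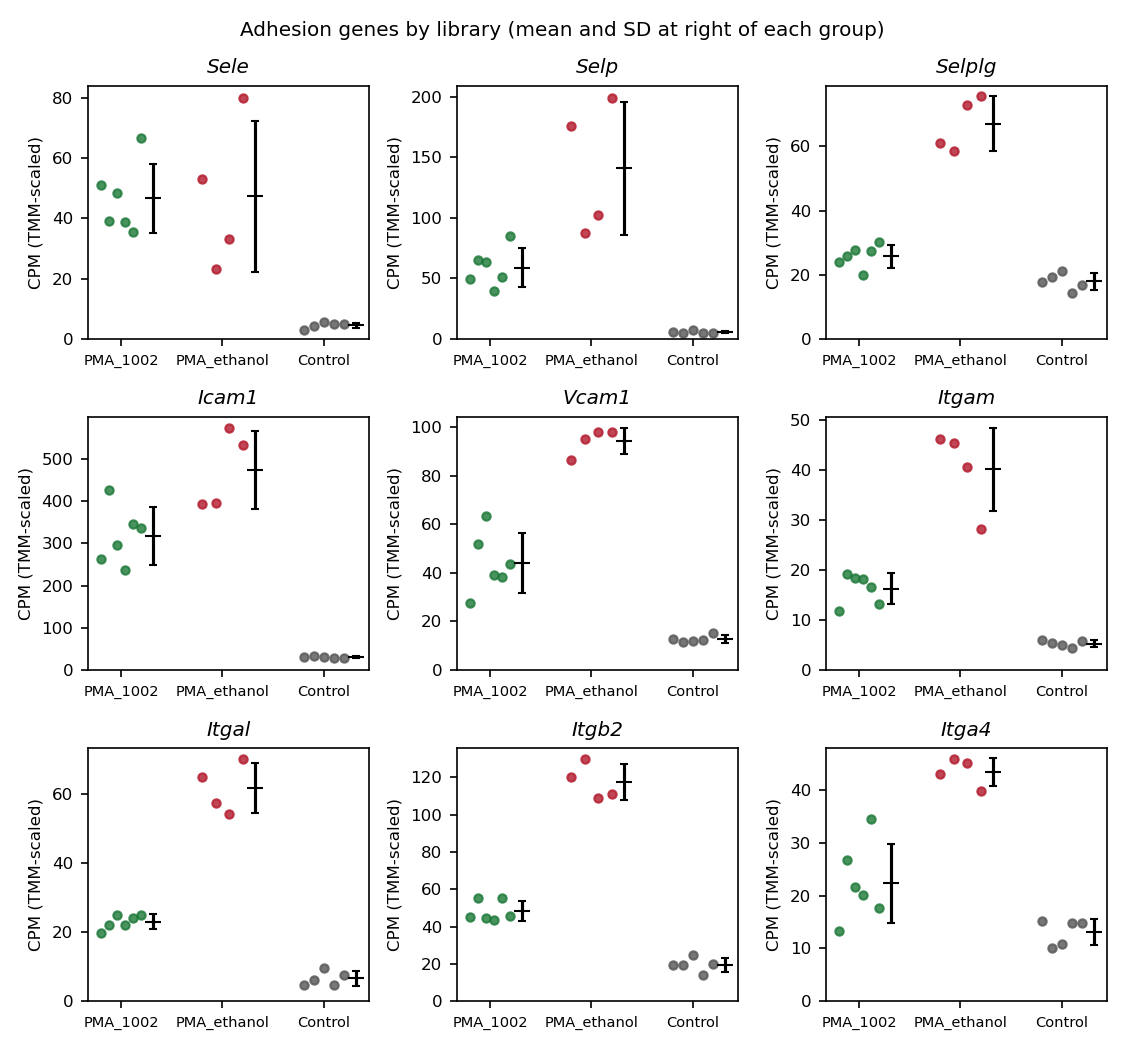
Level of each adhesion gene in every library (points, CPM on a linear axis from 0) with the group mean and SD beside them, for PMA_1002 (n = 6), PMA_ethanol (n = 4) and Control (n = 5). Sele overlaps between the 2 PMA groups, while Selp lies lower in PMA_1002 than in PMA_ethanol libraries.

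Selplg (ENSMUSG00000048163, chr5:113818536-113832644, minus strand) encodes PSGL-1, the main P-selectin ligand of leukocytes. Its lowest, median and highest PMA_1002 values were 19.8, 26.5 and 30.2 CPM. PMA_ethanol libraries had 61.0, 58.4, 73.0 and 75.7 CPM, and Control libraries had 17.9, 19.3, 21.3, 14.2 and 16.9 CPM. PMA_ethanol libraries were apart from both other groups, and 1 PMA_1002 library fell within the Control range. Its log2 fold change was -1.37 (SE 0.121) for PMA_1002 against PMA_ethanol (edgeR adjusted p = 3.6e-07), and 0.52 (SE 0.121) for PMA_1002 against Control (edgeR adjusted p = 0.00154), the smallest of the 9 in that comparison. For PMA_ethanol against Control it was 1.89 (SE 0.131; edgeR adjusted p = 1.39e-09).

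Icam1 (ENSMUSG00000037405, chr9:21015985-21028817, plus strand), the ligand of LFA-1 and Mac-1, is made by endothelium and also by activated keratinocytes and leukocytes. It had 237, 317 and 427 CPM in the lowest, median and highest PMA_1002 library. The PMA_ethanol libraries had 393, 395, 572 and 532 CPM and the Control libraries 31.0, 33.4, 31.4, 27.7 and 27.4 CPM. The highest PMA_1002 library exceeded 2 of the 4 PMA_ethanol libraries, while every PMA library was far above Control. Between the PMA groups its log2 fold change was -0.57 (SE 0.145), the smallest among the 8 called genes (edgeR adjusted p = 0.00576). Against Control the log2 fold change of PMA_1002 was 3.40 (SE 0.158; edgeR adjusted p = 6.04e-11). That of PMA_ethanol was 3.97 (SE 0.168; edgeR adjusted p = 5.46e-12). The keratinocyte marker sum was 23500 to 27400 CPM in PMA_1002, 11700 to 15800 CPM in PMA_ethanol and 21200 to 27700 CPM in Control libraries, and its part in the Icam1 levels was not tested.

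Vcam1 (ENSMUSG00000027962, chr3:116109949-116129688, minus strand), the ligand of VLA-4, had a lowest, median and highest value of 27.5, 41.4 and 63.5 CPM in PMA_1002. In PMA_ethanol libraries it had 86.6, 95, 97.9 and 98.1 CPM, and in Control libraries 12.8, 11.4, 12.0, 12.5 and 15.3 CPM. The 3 groups did not overlap. The log2 fold change was -1.11 (SE 0.158) for PMA_1002 against PMA_ethanol (edgeR adjusted p = 4.82e-05) and 1.78 (SE 0.167) for PMA_1002 against Control (edgeR adjusted p = 2.21e-07). For PMA_ethanol against Control it was 2.88 (SE 0.179; edgeR adjusted p = 5.2e-10). Icam1 thus exceeded Vcam1 within a library by 2.87 ± 0.39 log2 units of CPM in PMA_1002, 2.30 ± 0.23 in PMA_ethanol and 1.23 ± 0.26 in Control libraries (SD, n = 6, 4 and 5). The gap was wider than in Control in PMA_1002 ears, by 1.64 (exact permutation test, adjusted p = 0.0162), and in PMA_ethanol ears, by 1.08 (exact permutation test, adjusted p = 0.0223). The call in PMA_ethanol ears was lost each time 1 of the 5 Control libraries was left out, as was every ratio call of PMA_ethanol against Control. Between the PMA groups it differed by 0.56, which did not pass (exact permutation test, adjusted p = 0.0714, and 0.0357 without PMA_1002 library 3).

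Itgb2 (ENSMUSG00000000290, chr10:77530252-77565708, plus strand) is the beta chain that LFA-1 and Mac-1 share. Its lowest, median and highest PMA_1002 values were 43.7, 45.5 and 55.5 CPM. The PMA_ethanol libraries had 120, 130, 109 and 111 CPM and the Control libraries 19.4, 19.5, 24.7, 13.9 and 20.0 CPM. The groups were apart. Its log2 fold change was -1.28 (SE 0.115) for PMA_1002 against PMA_ethanol (edgeR adjusted p = 4.04e-07). Against Control it was 1.3 (SE 0.118) in PMA_1002 (edgeR adjusted p = 1.1e-07) and 2.58 (SE 0.127) in PMA_ethanol ears (edgeR adjusted p = 2.09e-11).

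Itgal (ENSMUSG00000030830, chr7:127296260-127335138, plus strand), the alpha chain of LFA-1, had 19.7, 23.2 and 25.1 CPM in the lowest, median and highest PMA_1002 library. The PMA_ethanol values were 65.1, 57.4, 54.3 and 70.1 CPM and the Control values 4.68, 6.03, 9.71, 4.78 and 7.54 CPM. No groups overlapped, and the log2 fold change was -1.43 (SE 0.147) for PMA_1002 against PMA_ethanol (edgeR adjusted p = 1.58e-06). Against Control the log2 fold change was 1.77 (SE 0.159) in PMA_1002 (edgeR adjusted p = 9.9e-08) and 3.20 (SE 0.17) in PMA_ethanol ears (edgeR adjusted p = 5.06e-11). Within a library Itgal was higher relative to Itgb2 in the PMA groups than in Control, as their log2 difference averaged -1.06 ± 0.20 in PMA_1002, -0.93 ± 0.22 in PMA_ethanol and -1.57 ± 0.27 in Control libraries (SD, n = 6, 4 and 5; exact permutation test, adjusted p = 0.0223 for each PMA group against Control). In PMA_1002 against Control the call was lost without Control library 1 (exact permutation test, adjusted p = 0.0584). In PMA_ethanol against Control the call was lost each time 1 of the 5 Control libraries was left out, as was every ratio call of that comparison. It was also lost without PMA_ethanol library 4 (exact permutation test, adjusted p = 0.067).

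Itgam (ENSMUSG00000030786, chr7:128062640-128118491, plus strand), the alpha chain of Mac-1 on neutrophils and macrophages, lies 727501 bp from Itgal. It had 11.8, 17.5 and 19.3 CPM in the lowest, median and highest PMA_1002 library. The PMA_ethanol libraries had 46.2, 45.4, 40.7 and 28.3 CPM and the Control libraries 6.07, 5.34, 4.97, 4.32 and 5.74 CPM. All 3 groups were apart. The log2 fold change was -1.31 (SE 0.152) for PMA_1002 against PMA_ethanol (edgeR adjusted p = 5.56e-06). Against Control it was 1.62 (SE 0.166) in PMA_1002 (edgeR adjusted p = 4.62e-07) and 2.93 (SE 0.176) in PMA_ethanol ears (edgeR adjusted p = 2.38e-10). Its deviations within groups tended to run opposite to those of Sele, r = -0.66 over 15 libraries, the lowest of all pairs and not tested. PMA_ethanol library 4 deviated most in both genes, by 0.91 for Sele and -0.47 for Itgam. Other libraries had the same sign in both, such as PMA_ethanol library 1 at 0.32 and 0.23.

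Itga4 (ENSMUSG00000027009, chr2:79255426-79333123, plus strand), the alpha chain of VLA-4, had 13.2, 20.9 and 34.5 CPM in the lowest, median and highest PMA_1002 library. PMA_ethanol libraries had 43.1, 45.8, 45.2 and 39.9 CPM and Control libraries 15.1, 9.99, 10.9, 14.8 and 14.8 CPM. PMA_ethanol was apart from both other groups, and the lowest PMA_1002 library lay below 3 of the 5 Control libraries. Its log2 fold change was the smallest of the 9 in PMA_ethanol against Control. The values were -0.94 (SE 0.199) for PMA_1002 against PMA_ethanol (edgeR adjusted p = 0.00161), 0.79 (SE 0.2) for PMA_1002 against Control (edgeR adjusted p = 0.00323) and 1.74 (SE 0.216) for PMA_ethanol against Control (edgeR adjusted p = 2.5e-06). Itga4 overlaps Cerkl on the other strand, which had 3 to 59 reads against 58 to 1045 for Itga4; the strand setting of the counting is not given, so these reads cannot be told apart with certainty. The other overlapping genes measured had at most 12 reads. Among them the protein-coding Gm49368 overlaps Itgam on the same strand and had 0 to 3 reads. What became of reads that fit both genes was not examined.

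**Figure D2:**
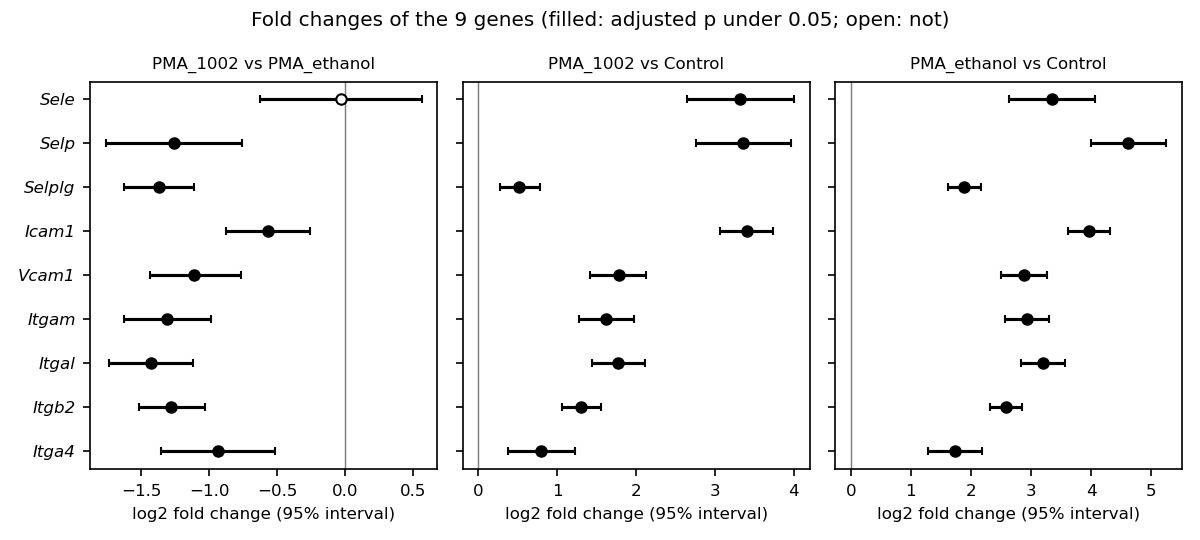
Log2 fold change (point) with its 95% interval (line) for each gene in the 3 comparisons; filled points have an edgeR adjusted p under 0.05. Only Sele in PMA_1002 against PMA_ethanol is open, at -0.03.

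In PMA_1002 against PMA_ethanol, 8 of the 9 genes were called lower, where 18% of all 14991 genes were, and 6 fell by a fold of at least 2, where 4.95% of all genes did. The median log2 fold change was -1.26 over the 9 genes and 0.032 over all genes. In PMA_1002 against Control all 9 were called higher, beside 28.4% of all genes, and 7 by a fold of at least 2, beside 7.58%, with a median of 1.77 against -0.029 over all genes. In PMA_ethanol against Control all 9 were called higher with a fold of at least 2, beside 32.5% of all genes called higher and 13.8% with that fold, and the median was 2.93 against -0.067. The groups did not overlap in 7, 7 and 9 of the 9 genes in these 3 comparisons, against 13.0%, 20.2% and 28.2% of all genes. The 9 genes were chosen with earlier results of these data known, so these counts are a description and no test of the set.

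Levels of different genes were compared per kilobase of exon (RPKM from the TMM-scaled CPM and GENCODE exon lengths). Icam1 was first in every group, at 72.9 ± 15.6 RPKM in PMA_1002, 109 ± 21.2 RPKM in PMA_ethanol and 6.92 ± 0.589 RPKM in Control ears (SD, n = 6, 4 and 5), its range apart from the next gene in both PMA groups and overlapping Itgb2 in Control. Sele, Itgb2 and Selp followed in PMA_1002, at 16.0, 15.8 and 13.4 RPKM, and overlapped each other. In PMA_ethanol Itgb2 (38.4 RPKM), Selp (31.9 RPKM), Sele (16.3 RPKM) and Selplg (15.7 RPKM) formed an overlapping run of neighbours. In Control the selectins stood much lower, with Sele at 1.57 RPKM and Selp at 1.27 RPKM, beside Itgb2 at 6.39 RPKM and Selplg at 4.19 RPKM. Itga4 had the lowest mean in each group, at 1.6 RPKM in PMA_1002, 3.11 RPKM in PMA_ethanol and 0.938 RPKM in Control ears. Its range overlapped that of Itgam in PMA_1002 and that of Itgal in Control. The rank depends on its exon length of 13978 bp, the longest of the 9. In CPM its Control mean of 13.1 was above that of Itgal (6.55) and Itgam (5.29).

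**Figure D3:**
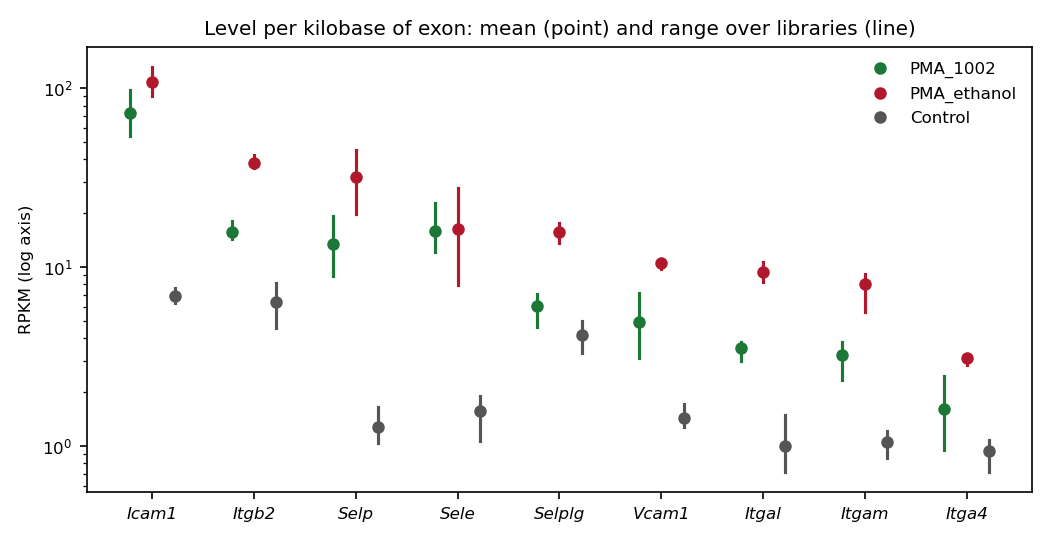
RPKM of the 9 genes on a log axis, with the mean (point) and range (line) over the libraries of PMA_1002, PMA_ethanol and Control. Icam1 has the highest mean in every group and Itga4 the lowest, with ranges that overlap the next gene in some groups.

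In bulk tissue, fewer cells of a type and less RNA per cell cannot be told apart, so the genes were set beside marker genes of the cells that carry them. The summed level of 12 endothelial markers was 380 to 436 CPM in PMA_1002, 449 to 518 CPM in PMA_ethanol and 358 to 426 CPM in Control libraries. Of the 12, 4 were called higher and 3 (Tek, Cldn5 and Emcn) lower in PMA_ethanol against Control, beside 32.5% and 35.9% of all genes. The 6 pan-leukocyte markers summed to 398 to 601 CPM in PMA_1002, 1110 to 1380 CPM in PMA_ethanol and 190 to 259 CPM in Control libraries, without overlap. The 7 testable of 11 neutrophil markers summed to 282 to 430, 931 to 1500 and 95 to 114 CPM in PMA_1002, PMA_ethanol and Control libraries. Most of the Control sum was Il1r2, at a mean of 107, 196 and 79.2 CPM in those groups. All 7 were called lower in PMA_1002 against PMA_ethanol, beside 18% of all genes. They were all called higher against Control, beside 28.4% of all genes in PMA_1002 and 32.5% in PMA_ethanol. The pan-leukocyte and neutrophil markers thus moved with the integrins and Selplg. Their part in those results was tested only through the ratios to Ptprc given further on. Mast cell markers did not move in this way. Of 6, 2 were called higher and 0 lower in PMA_1002 against PMA_ethanol, beside 17% and 18% of all genes. In PMA_ethanol against Control 0 were called higher and 5 lower, beside 32.5% and 35.9% of all genes. The 11 monocyte and macrophage markers summed to 689 to 861 CPM in PMA_1002, 946 to 1250 CPM in PMA_ethanol and 547 to 637 CPM in Control libraries. That sum was carried largely by Mrc1, at a mean of 263, 483 and 118 CPM in PMA_1002, PMA_ethanol and Control ears. In PMA_1002 against PMA_ethanol 5 of the 11 were called lower and 2, C1qa and C1qc, higher, beside 18% and 17% of all genes. In PMA_ethanol against Control 5 were called higher and 3 (C1qa, C1qc and Mertk) lower, beside 32.5% of all genes called higher and 35.9% called lower. No B cell marker of 5 was testable, and T and NK cell markers summed to 27.9 to 47.1 CPM in PMA_1002, 38 to 64.1 CPM in PMA_ethanol and 35.6 to 62.2 CPM in Control libraries. Of 9 testable T and NK cell markers, 3 (Cd3d, Cd2 and Lck) were called lower in PMA_1002 against PMA_ethanol and 0 higher. The shares of all genes were 18% and 17%. In PMA_ethanol against Control 4 were called higher and 1 lower, beside 32.5% and 35.9% of all genes.

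**Figure D4:**
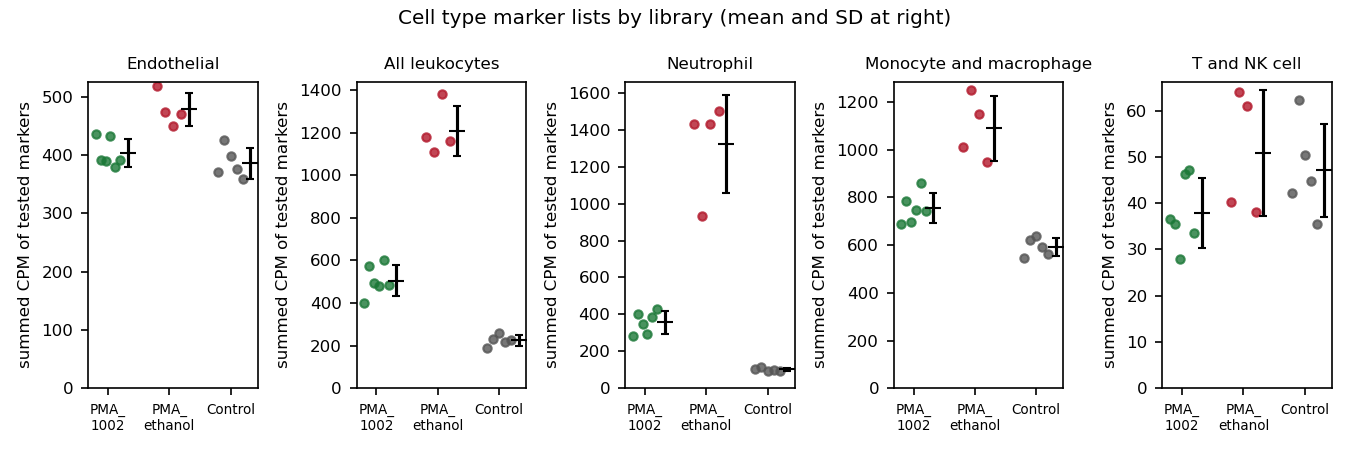
Summed CPM of the tested markers of 5 cell types in every library (points) with the group mean and SD, for PMA_1002, PMA_ethanol and Control, on axes from 0. Leukocyte and neutrophil sums separate all 3 groups, while the endothelial sums of PMA_1002 and Control overlap.

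Relative to Ptprc, which encodes the pan-leukocyte protein CD45, none of the 5 leukocyte genes passed the test between the PMA groups. The log2 difference of the ratio to Ptprc, PMA_1002 minus PMA_ethanol, was 0.01 for Selplg, 0.1 for Itgam, -0.03 for Itgal, 0.11 for Itgb2 and 0.37 for Itga4 (exact permutation tests, adjusted p between 0.0873 for Itga4 and 0.957 for Selplg). Ptprc itself changed by -1.37 (SE 0.119) in PMA_1002 against PMA_ethanol (edgeR adjusted p = 2.87e-07). The median log2 fold change of the 6 pan-leukocyte markers was -1.09 in that comparison. Besides Ptprc, Cd53 changed by -1.56, Lcp1 by -1.27, Cd52 by -0.92, Laptm5 by -0.83 and Was by -0.7. Ratios to those markers were not tested, so the result holds only for Ptprc as the reference. In PMA_1002 against Control the ratio to Ptprc was higher for Itgal by 0.74 (exact permutation test, adjusted p = 0.0162) and for Itgam by 0.47 and differed by -0.57 for Selplg (exact permutation tests, adjusted p = 0.0256 for both). In PMA_ethanol against Control it differed by 0.76 for Itgal (exact permutation test, adjusted p = 0.0466), and by -0.58 for Selplg and -0.75 for Itga4 (exact permutation tests, adjusted p = 0.034 for both). Of these 6 calls, that of Itgal in PMA_1002 held whichever library was left out. That of Itgam was lost without any of Control libraries 2 to 5, and the other 4 were lost each time 1 of the 5 Control libraries was left out. Leaving out a Control library removed every ratio call of PMA_ethanol against Control, so that loss is not particular to these genes. The 3 calls in PMA_ethanol were also lost without some PMA_ethanol libraries. Relative to the mean of the 12 endothelial markers, PMA_1002 minus PMA_ethanol was 0.17 for Sele (exact permutation test, adjusted p = 0.696), -1.14 for Selp (exact permutation test, adjusted p = 0.0223, and 0.0536 without PMA_ethanol library 4), -0.51 for Icam1 (exact permutation test, adjusted p = 0.107) and -1.07 for Vcam1 (exact permutation test, adjusted p = 0.0252). Selp and Vcam1 were thus lower in PMA_1002 relative to that mean, and the tests for Sele and Icam1 did not pass. The 12 endothelial markers did not move together between the PMA groups. Of them 3 were called lower (Cdh5 -0.61, Eng -0.49, Pecam1 -0.26) and 1 higher (Tek 0.77), beside 18% and 17% of all genes.

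**Figure D5:**
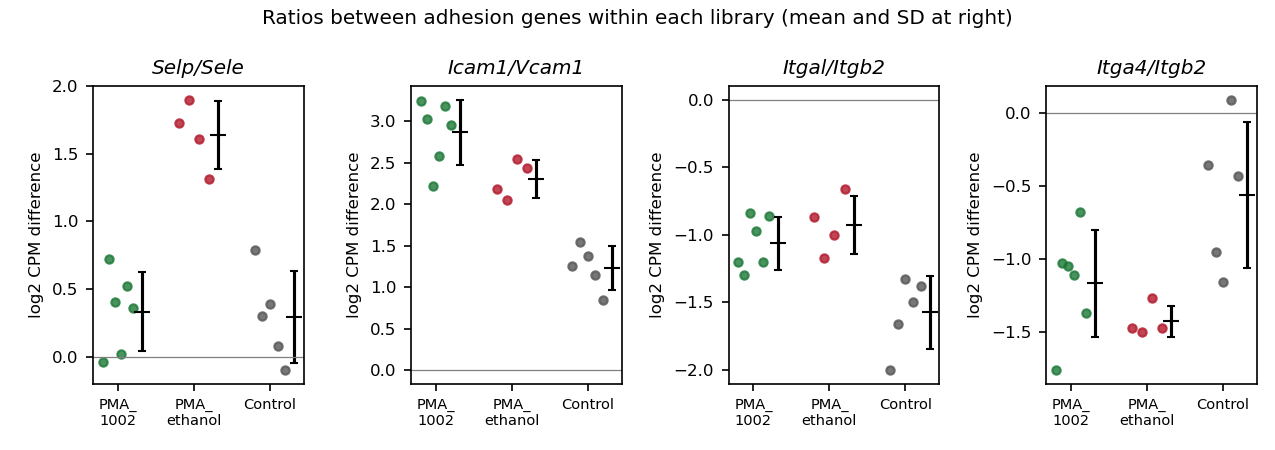
Log2 CPM difference between paired adhesion genes in each library (points) with the group mean and SD, for PMA_1002, PMA_ethanol and Control. Selp minus Sele lies at 1.31 to 1.9 in PMA_ethanol, above all PMA_1002 and Control libraries.

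Other adhesion genes were taken from lists written from textbook knowledge, but with earlier results of these data known. Their counts stand beside 18% of all genes called lower and 17% called higher in PMA_1002 against PMA_ethanol. In the list of integrin activation in leukocytes, 15 of 18 genes were called lower and 0 higher in PMA_1002 against PMA_ethanol, among them the kinase Syk (log2 fold change -1.48, SE 0.135), the GTPase Rac2 (-1.38, SE 0.128) and the exchange factor Vav1 (-1.08, SE 0.096). The pan-leukocyte gene Ptprc changed by -1.37 in the same comparison. Of 21 testable other integrin chains 9 were lower and 2 higher in that comparison, including Itgb3 (-1.74, SE 0.147), Itga5 (-1.32, SE 0.132) and Itgax (-1.27, SE 0.146), while the VLA-4 partner Itgb1 changed by -0.55 (SE 0.1) and Itgb7 by -0.74 (SE 0.179). Of 10 testable selectins and ligands 5 were lower and 1 higher, with the ligand Cd44 at -1.18 (SE 0.176). Cd44 averaged 883 CPM in PMA_1002, 2010 CPM in PMA_ethanol and 178 CPM in Control ears. Of 10 testable glycosylation genes 5 were lower and 1 higher, including Gcnt1 (-1.2, SE 0.152) and St3gal4 (-1.0, SE 0.106), which build selectin ligand sugars. Of 12 immunoglobulin and junction genes 7 were lower and 2 higher, with Icam2 at -1.01 (SE 0.17) and Pecam1 at -0.26 (SE 0.0644), and 3 of that list are also endothelial markers. Fut7, which completes selectin ligands, and Madcam1 were below the count filter, with at most 18 and 5 reads in a library.

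The genes whose log2 CPM followed each member most closely over the 15 libraries were named by Pearson's r, among 13794 candidates. They were Ccn1 for Sele (r = 0.971), Akap12 for Selp (r = 0.992), Relt for Selplg (r = 0.984), Clec4e for Icam1 (r = 0.995) and Sod2 for Vcam1 (r = 0.986). For the integrins they were Rras2 for Itgam (r = 0.988), Cd300lf for Itgal (r = 0.989), Sema4d for Itgb2 (r = 0.993) and Son for Itga4 (r = 0.962). These values are descriptions over libraries that share the 3 groups.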

How the data were processed

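Libraries were grouped by their sample titles. Each deposited table holds the raw counts of 1 library, whole numbers of reads for every gene with no scaling. The tools named in the submitters' processing notes are STAR 2.5, HTSeq, FastQC 0.11.5 and MultiQC 0.8, with the build GRCm38; the sources used here state neither the strand option nor the annotation release. Reads given to no gene (28.5% to 32.85% of a table) stayed out of library sizes and tests. The shallowest library held 2656680 reads in genes (PMA_ethanol library 3) and the deepest 28585995 (PMA_1002 library 5), so precision differs between libraries.

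Symbols, positions and exon lengths came from GENCODE M21. The main test was edgeR 4.0.16 under R 4.3.3: TMM scaling, filterByExpr, robust quasi-likelihood fits over all 15 libraries and 3 groups, and Benjamini-Hochberg adjustment. DESeq2 1.42.0 was an alternative, beside other scalings, filters, a replicate block, a hair follicle covariate, 2-group fits and leaving out each library. Log2 CPM used a prior count of 2. Ratios were compared with two-sided exact permutation tests. Over 31 pairs of libraries of a group, chi-square per degree of freedom was 2.927 to 27.02, so none was treated as a repeat.

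The members and lists were chosen with earlier results of these data known. All 9 members are named, with up to 3 called genes of smallest adjusted p per adhesion list and comparison, 9 fixed adhesion genes, and the genes with the highest r to each member; the text gives a selection of these, and some genes the rule names are not reported here. Promoter windows came from RefSeq tables.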

Additional observations from a re-analysis of the deposited data

How the results depend on the processing

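No called fold of the 9 genes changed direction or lost its call under any alternative run, and Sele in PMA_1002 against PMA_ethanol was never called, with log2 fold changes of -0.28 to 0.35 and adjusted p of 0.286 to 1.0 over 18 alternatives (edgeR or DESeq2). The number of within-library ratios that passed for PMA_ethanol against Control was 11 of 15, and 0 to 8 when 1 library was left out; with 4 against 4 libraries the exact permutation p cannot go below 0.0286. For PMA_1002 against PMA_ethanol it was 3, and 2 to 4, and for PMA_1002 against Control 9, and 7 to 10. Upper-quartile scaling moved the median of all genes by 0.077, -0.158 and -0.236 in PMA_1002 against PMA_ethanol, PMA_1002 against Control and PMA_ethanol against Control, and the share of calls that were higher became 61.8%, 34.6% and 33.6%, against 48.7%, 51.5% and 47.5%. With the replicate block, 8, 9 and 9 members were called in those comparisons and 1890 genes were higher and 2098 lower in PMA_1002 against PMA_ethanol. Libraries with the same number did not deviate together (r from -0.533 to 0.579, median -0.241 over 13 pairs), and 1 of 15 correlated best with its own number. The lowest count of any member in a library was 18 reads, of Sele.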

Other observations

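Against Control, other adhesion genes gave the following values. In PMA_1002 ears Itgb6, a chain of an epithelial integrin, was higher by 2.25 (SE 0.179), Itga3 by 1.5 (SE 0.0939) and Itga5 by 1.51 (SE 0.134), all called by edgeR, while Itgb7 was 0.13 (SE 0.175) and not called (edgeR adjusted p = 0.534). In PMA_ethanol ears Itgb6 was higher by 3.32 (SE 0.191), Itga3 by 1.64 (SE 0.101) and Itga5 by 2.82 (SE 0.147). Itga3 averaged 231 CPM in PMA_1002, 256 CPM in PMA_ethanol and 82 CPM in Control ears. The kinase gene Fgr, which acts in integrin signalling of myeloid cells, was higher by 2.76 (SE 0.122) in PMA_1002 ears and by 3.9 (SE 0.13) in PMA_ethanol ears. Some genes were lower in PMA_1002 than in Control ears. The log2 fold change was -0.41 (SE 0.0667) for Glg1, a selectin ligand of the Golgi. It was -0.73 (SE 0.0978) for the sulfotransferase gene Chst2 and -0.6 (SE 0.0981) for Cd99l2.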
